A study of Mus musculus with 9 samples.

Results

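The glutathione peroxidase family of the mouse was followed over laser-captured prostate lesions. Its 8 listed genes, Gpx1 to Gpx8, each had exactly 1 probe set with that single symbol, so the rule of taking the brightest probe set by mean log2 intensity over the 9 arrays chose nothing among them. They were 8 of 22180 genes with a probe set. The family was chosen by its listed genes with earlier results of these arrays known, among them the log2 intensity of Gpx3 in tumours. The Gpx3 difference is therefore a description, and its p-values, those of the fit over all genes, are no independent support for it.

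RNA from paraffin sections of the prostate, taken from males of a mixed strain at 12 months of age, was amplified and hybridised to whole-transcript mouse arrays, with 1 array per sample; lesions were picked by eye on stained serial sections. There were 3 groups of 3 arrays. Poorly differentiated tumours (labelled solid tumors) and high-grade prostatic intraepithelial neoplasia (HG-PIN, dysplastic epithelium still within the gland) came from the same 3 mice, which carried PbCre and T-3Mb-Erg/+. Control HG-PIN came from 3 other mice, whose labelled genotype differs in lacking T-3Mb-Erg. All 6 mice thus had PbCre, a Cre transgene driven by the probasin promoter of prostate epithelium, and the control samples were lesions too and not normal prostate. Only the T-3Mb-Erg/+ mice carried the T-3Mb-Erg allele, on 1 chromosome; the title of the series concerns the interstitial genes between Tmprss2 and Erg. Replicate numbers 1, 2 and 3 of the tumours and of the T-3Mb-Erg HG-PIN mark the same mice.

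Glutathione peroxidases reduce hydrogen peroxide and organic hydroperoxides with electrons from glutathione, which glutathione reductase then restores. In the mouse, Gpx1 to Gpx4 carry selenocysteine at the active site and depend on selenium supply, whereas Gpx5 to Gpx8 carry cysteine there. The members differ in place and substrate: Gpx1 acts in cytosol and mitochondria, Gpx2 in epithelial cells, best known in the gut, Gpx3 is secreted and is the form of plasma, Gpx4 reduces lipid hydroperoxides within membranes, and Gpx7 and Gpx8 sit in the endoplasmic reticulum. In human prostate cancer, GPX3 is known for promoter methylation and low expression.

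The promoter windows of Gpx3, Gpx8 and Gpx2 are printed because these 3 members showed the largest differences between tumours and T-3Mb-Erg HG-PIN. Each window covers 250 bases before to 50 bases after the annotated start (RefSeq, build GRCm38.p6), written 5′ to 3′ on the strand of the gene, and capitals mark any match to the motifs named after the sequences.
Gpx3, chr11:54902604-54902903, plus strand: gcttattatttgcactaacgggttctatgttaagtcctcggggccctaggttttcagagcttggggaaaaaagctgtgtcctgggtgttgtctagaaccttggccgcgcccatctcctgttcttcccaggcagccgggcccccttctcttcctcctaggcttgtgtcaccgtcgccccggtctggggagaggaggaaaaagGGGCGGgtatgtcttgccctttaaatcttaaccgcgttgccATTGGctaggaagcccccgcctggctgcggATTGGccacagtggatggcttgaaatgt
Gpx8, chr13:113046339-113046638, minus strand: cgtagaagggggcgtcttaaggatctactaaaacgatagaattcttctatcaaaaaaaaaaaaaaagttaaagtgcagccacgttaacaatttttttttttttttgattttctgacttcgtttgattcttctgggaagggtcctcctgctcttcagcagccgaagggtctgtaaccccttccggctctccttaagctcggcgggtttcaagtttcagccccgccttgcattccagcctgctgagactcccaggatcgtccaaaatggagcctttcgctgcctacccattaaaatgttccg
Gpx2, chr12:76795505-76795804, minus strand: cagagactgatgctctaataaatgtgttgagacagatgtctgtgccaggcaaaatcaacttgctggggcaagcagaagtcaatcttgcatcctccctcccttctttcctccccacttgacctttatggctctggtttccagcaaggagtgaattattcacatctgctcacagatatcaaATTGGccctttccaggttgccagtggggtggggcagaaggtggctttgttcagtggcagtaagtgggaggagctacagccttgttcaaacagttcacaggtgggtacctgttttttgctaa

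Searched on both strands were the GC box GGGCGG, the CCAAT box, the TATA box TATAAA and the core of the antioxidant response element, TGACNNNGC, through which Nrf2 acts. No matches overlapped in these windows. The Gpx3 window held 1 GC box starting 49 bases before the start and 2 CCAAT boxes, at positions -8 and +23 from the start. The Gpx2 window held 1 CCAAT box starting 71 bases before the start. These CCAAT boxes of Gpx3 and Gpx2 were all read on the opposite strand. No match was found in the Gpx8 window. Over all 32851 RefSeq promoter windows of this length, 35.7% held the GC box, 37.4% the CCAAT box, 13.6% the TATA box and 12.4% the antioxidant response element core. None of the 11 windows of the 8 members held the last 2 motifs. These matches describe the letters only.

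The arrays hold no read depth, and their number limits the precision. The 95th percentile of log2 intensity over named genes, a measure of the signal range of an array, lay at 5.63 to 6.25 for tumours, 5.78 to 6.16 for T-3Mb-Erg HG-PIN, and 5.61 to 5.95 for control HG-PIN. As a gauge of background, the 95th percentile of mean log2 intensity over 1390 olfactory and vomeronasal receptor genes was 4.81. Below this receptor level a signal may be mostly background and a fold change is compressed. Gpx1, Gpx3, Gpx4 and Gpx8 had means over the 9 arrays above it, and Gpx2, Gpx5, Gpx6 and Gpx7 below it. Genes in the lowest 25% of mean signal were left out of the tests, which kept 6 of the 8 members and dropped Gpx5 and Gpx6. A mean above the receptor level was found for 27.9% of all genes tested. Of 17 luminal epithelial markers with a probe set, 5 had a group mean above the receptor level in tumours, against 16 in either kind of HG-PIN. In these bulk captures fewer cells of a type and less RNA per cell cannot be told apart.

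Between the tumours and the HG-PIN that the same mice carried, Gpx3 was the member called: its signal was 7.90-fold higher in tumours. Gpx8, a peroxidase of the endoplasmic reticulum, was 2.29-fold higher and Gpx2, the epithelial form, 2.22-fold lower, and neither passed the test over all genes. Gpx1, Gpx4 and Gpx7 had log2 changes between -0.37 and 0.22, with intervals that included 0. Over all 16635 genes tested, limma called 11 higher (0.0661%) and 36 lower (0.216%) in tumours at an adjusted p under 0.05. Of the 6 tested members 1 was called higher and 0 lower, with 3 at an unadjusted p under 0.05 (7.65% of all genes). Groups without overlap were found for 1 member higher (4.97% of all genes) and 1 lower (6.43%). The members had a median log2 change of -0.06, and all genes one of -0.01.

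**Figure D1:**
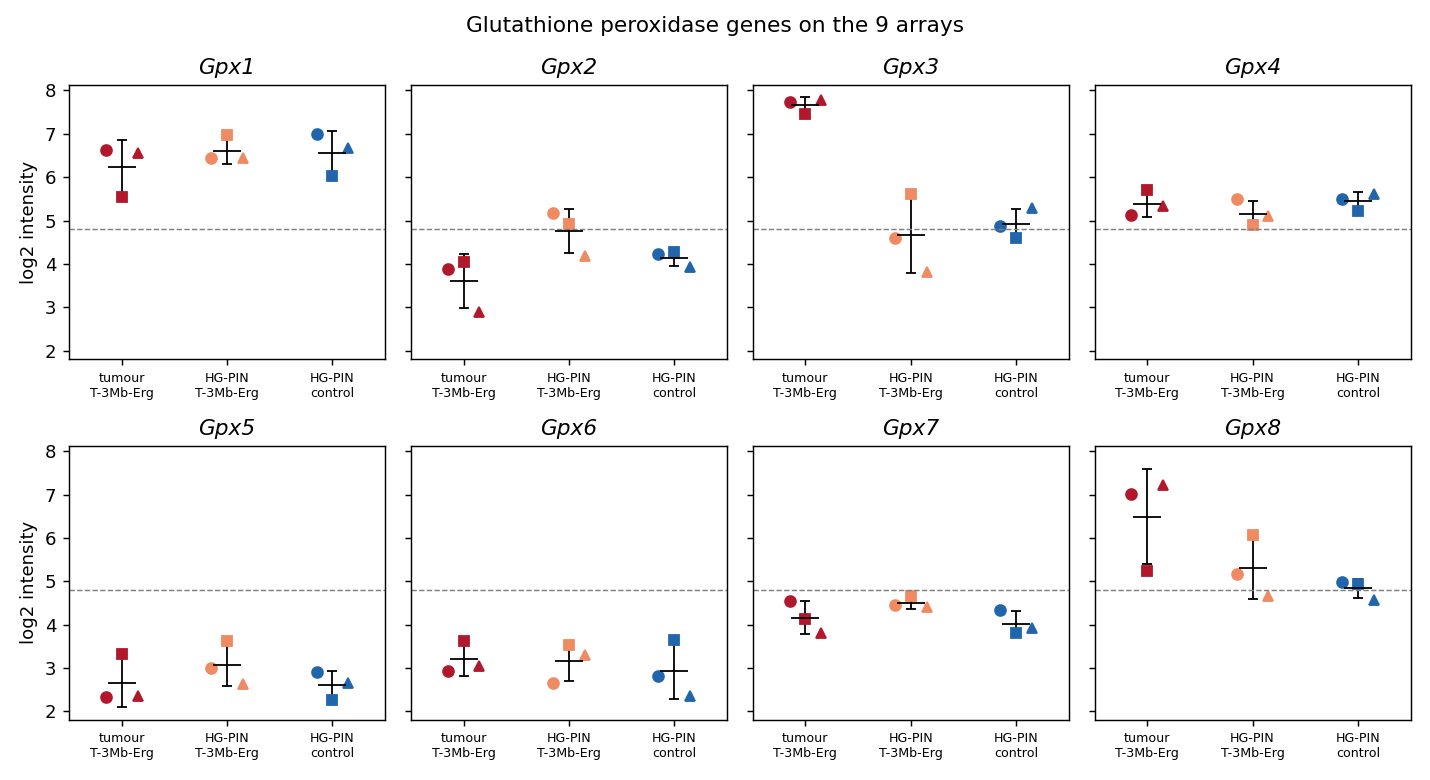
Log2 intensity of the 8 genes on each array (vertical axis) in tumours, T-3Mb-Erg HG-PIN and control HG-PIN, from left to right. Circles, squares and triangles are replicates 1, 2 and 3, black bars the group mean and SD, and the dashed line the receptor level of 4.81. The 3 tumour values of Gpx3 lie above all 6 HG-PIN values.

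Gpx3, the secreted plasma form, had log2 intensities of 7.73, 7.45 and 7.79 in tumours, against 4.60, 5.61 and 3.83 in T-3Mb-Erg HG-PIN, with 4.89, 4.60 and 5.29 on control HG-PIN arrays. The tumours were the tightest of the groups (SD 0.18, against 0.89 and 0.35), and no tumour overlapped with either kind of HG-PIN. The log2 change against T-3Mb-Erg HG-PIN was 2.98 (SE 0.42, 95% interval 2.07 to 3.90, adjusted p = 0.0180). Within the 3 mice the difference was 3.14, 1.84 and 3.97, so the tumour was higher in 3 of 3 mice. The T-3Mb-Erg HG-PIN mean of 4.68 lay below the receptor level, which makes the fold a compressed measure. When the mouse entered as a fixed replicate block, Gpx3 had an adjusted p of 0.0473 and 15 genes were called in place of 47. Leaving out either array of mouse 1, tumour or HG-PIN, ended the call with the change at 2.95 each time (adjusted p = 0.152 and 0.167, with 0 and 5 genes called in all).

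Gpx8, which takes up peroxide in the endoplasmic reticulum, had log2 intensities of 7.01, 5.25 and 7.23 in tumours, against 5.17, 6.06 and 4.67 in T-3Mb-Erg HG-PIN. Tumours 1 and 3 lay above every HG-PIN array and tumour 2 did not, so the groups overlapped. The log2 change of 1.20 (SE 0.51, 95% interval 0.09 to 2.30) had an adjusted p of 0.581. In the mice the difference was 1.84, -0.81 and 2.56, higher in 2 of 3. Tumour replicate 2 was also the tumour array with the narrowest signal range (95th percentile 5.63). With the signal range as a term in the fit the change was 1.13. It was 1.74 without tumour replicate 2, 0.74 without tumour replicate 3 and 0.77 without the HG-PIN array of mouse 3. What set tumour 2 apart was not tested. Gpx7, its close relative in the same compartment, had 4.55, 4.14 and 3.81 in tumours against 4.46, 4.67 and 4.41 in T-3Mb-Erg HG-PIN (log2 change -0.34, 95% interval -0.87 to 0.18, adjusted p = 0.879; 0.09, -0.53 and -0.60 in the 3 mice). All 9 Gpx7 values lay under the receptor level.

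Gpx2, the epithelial selenoenzyme, was low in tumours, with log2 intensities of 3.89, 4.05 and 2.90, against 5.17, 4.93 and 4.18 in T-3Mb-Erg HG-PIN. The groups did not overlap, and the tumour was lower in 3 of 3 mice, by 1.28, 0.89 and 1.28. The log2 change was -1.15 (SE 0.33, 95% interval -1.88 to -0.42) and did not pass over all genes (adjusted p = 0.291). Tumour values of Gpx2 all lay below the receptor level, and of the T-3Mb-Erg HG-PIN values 2 of 3 lay above it. A pseudogene copy, Gpx2-ps1, had a probe set of its own, with a mean of 3.80 ± 0.32 in tumours, against 3.92 ± 0.45 in T-3Mb-Erg HG-PIN (SD, n = 3 each; log2 change -0.11, adjusted p = 0.995). Every Gpx2-ps1 value lay below the receptor level, where a change is compressed. Cross-reading between the 2 probe sets was not tested.

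**Figure D2:**
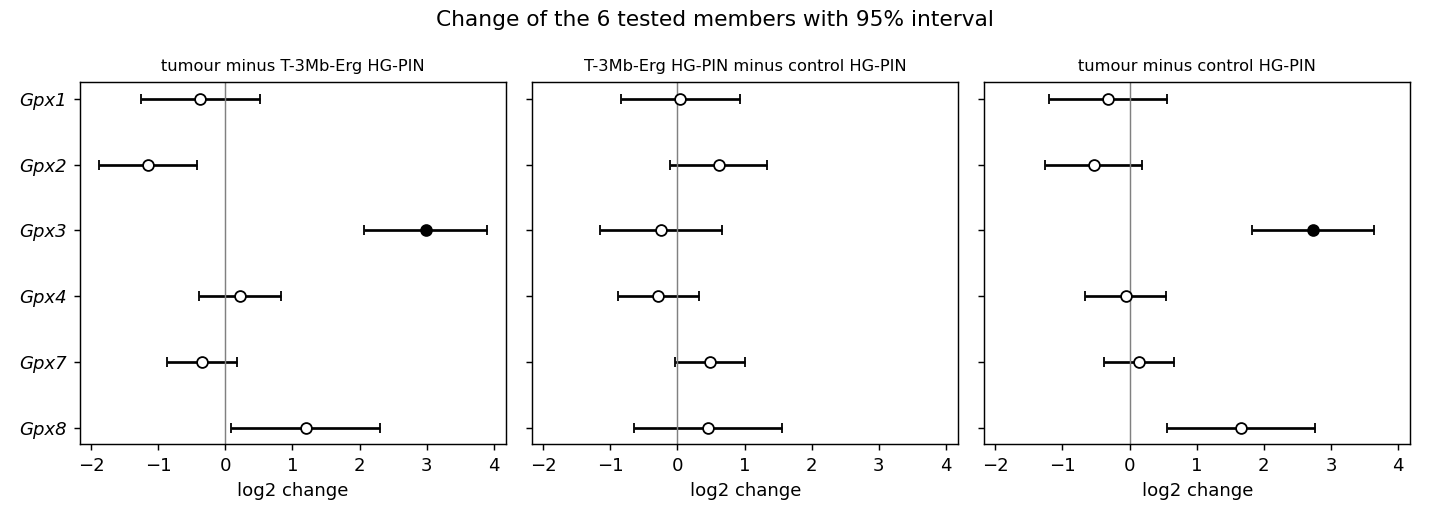
Log2 change (horizontal axis) of the 6 tested members in the 3 comparisons, with 95% intervals from the fit over all genes. Filled circles mark an adjusted p under 0.05, which Gpx3 reached in both tumour comparisons, at 2.98 and 2.73; the panels share arrays.

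The 2 widely expressed selenoenzymes gave small differences. Gpx1, the main peroxidase of the cytosol, had log2 intensities of 6.63, 5.54 and 6.55 in tumours, against 6.44, 6.97 and 6.44 in T-3Mb-Erg HG-PIN, with tumour 2 as the lowest of the 9 arrays. Its log2 change was -0.37 (95% interval -1.26 to 0.52, adjusted p = 0.970), an interval that includes a drop beyond 2-fold, and 0.20, -1.42 and 0.12 in the 3 mice. Gpx4, the lipid hydroperoxide reductase whose loss leads to ferroptosis, had 5.12, 5.71 and 5.33 in tumours, against 5.49, 4.90 and 5.10 in T-3Mb-Erg HG-PIN. Its 9 values spanned 0.81, the narrowest span of the 8 members. The log2 change was 0.22 (95% interval -0.39 to 0.83, adjusted p = 0.980), an interval that stays below a 2-fold change on either side. In the 3 mice it was -0.37, 0.81 and 0.23. Gpx4 has pseudogene copies in the mouse genome, which its probe set may read.

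Gpx5, a secreted form of the epididymis, and Gpx6, a form of olfactory tissue, were not tested. Gpx5 lay at 2.32 to 3.32 in tumours, against 2.63 to 3.62 in T-3Mb-Erg HG-PIN, with 2.27 to 2.91 on control HG-PIN arrays. Gpx6 lay at 2.93 to 3.63 in tumours, against 2.65 to 3.53 in T-3Mb-Erg HG-PIN, with 2.35 to 3.66 on control HG-PIN arrays. All 18 values were below the receptor level and the groups overlapped in every comparison.

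Between T-3Mb-Erg HG-PIN and control HG-PIN, lesions of 1 kind that differ in the T-3Mb-Erg allele, limma called 0 members and 0 of all genes (0% in each direction). At an unadjusted p under 0.05 there were 0 members and 682 genes (4.10%). Gpx7 had the only groups without overlap among the tested members, with log2 intensities of 4.46, 4.67 and 4.41 in T-3Mb-Erg HG-PIN, against 4.35, 3.80 and 3.92 in control HG-PIN. Groups stood apart in this direction for 4.86% of all genes and in either direction for 10.1%. Its log2 change was 0.49 (95% interval -0.03 to 1.01, adjusted p = 0.998). Gpx2, at 4.22, 4.28 and 3.94 in control HG-PIN, had a change of 0.61 (95% interval -0.11 to 1.33), and Gpx8 one of 0.46 (95% interval -0.64 to 1.56). Gpx3 was at -0.25 (95% interval -1.16 to 0.66), Gpx4 at -0.28 (95% interval -0.89 to 0.33) and Gpx1 at 0.05 (95% interval -0.84 to 0.93). The control HG-PIN arrays had 6.99, 6.04 and 6.67 for Gpx1 and 5.49, 5.22 and 5.62 for Gpx4, and both genes overlapped with T-3Mb-Erg HG-PIN. The intervals of Gpx1 and Gpx4 lay within a 2-fold change on both sides. Those of Gpx2, Gpx7 and Gpx8 did so on the lower side alone, and that of Gpx3 on the upper side alone. The change of Gpx3 had the opposite sign, 0.20, without T-3Mb-Erg HG-PIN replicate 3.

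Tumours against control HG-PIN differ in genotype and lesion and share arrays with the comparisons above. Over all genes 18 were called higher (0.108%) and 12 lower (0.0721%), with 1 member higher and 0 lower. An unadjusted p under 0.05 was reached by 2 members and by 9.32% of all genes. Groups without overlap were seen for 2 members higher (6.20% of all genes) and 0 lower (7.51%). Gpx3 was 6.65-fold higher, with means of 7.66 ± 0.18 in tumours against 4.93 ± 0.35 in control HG-PIN (SD, n = 3 each; log2 change 2.73, SE 0.41, adjusted p = 0.0288). Gpx8 was 3.15-fold higher, with 7.01, 5.25 and 7.23 in tumours, against 4.99, 4.94 and 4.58 in control HG-PIN. The groups did not overlap, and the log2 change of 1.66 (95% interval 0.56 to 2.76) did not pass (adjusted p = 0.257). It was called in 2 of 19 other settings, with array weights (2.07, adjusted p = 0.00787) and without tumour replicate 2 (2.20, adjusted p = 0.0210). Across the arrays left out singly it went down to 1.20, with an adjusted p of up to 0.686. Gpx2 stood at -0.54 (adjusted p = 0.712), and Gpx1, Gpx4 and Gpx7 at -0.32, -0.06 and 0.14. The call of Gpx3 ended on the 6 arrays of both groups alone (adjusted p = 0.0507). It also ended without the tumour array of mouse 1 (0.111) or 3 (0.104), the HG-PIN array of mouse 3 (0.0504), or control HG-PIN replicate 1 (0.167) or 3 (0.118), these being adjusted p values. The change stayed between 2.54 and 2.92 when single arrays were left out.

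Fibroblast markers, like Gpx3 and Gpx8, were on average higher in tumours than in T-3Mb-Erg HG-PIN. Lists of other cell types, which moved in both directions, follow below. All 17 tested fibroblast markers were positive between tumours and T-3Mb-Erg HG-PIN, against 48.9% of all genes, with a median log2 change of 0.86, or 0.31 without tumour replicate 3 and 0.55 without the HG-PIN array of mouse 3. Limma called 0 of them and 7 had an unadjusted p under 0.05, led by Pdgfra, a growth factor receptor (1.95, adjusted p = 0.168), and Thy1, a surface glycoprotein (1.99, adjusted p = 0.243). The summed intensity of the 20 fibroblast markers with a probe set was 1804, 737.3 and 4069.6 in tumours, against 675.8, 918.2 and 473.2 in T-3Mb-Erg HG-PIN, with 414.7 to 418.0 on control HG-PIN arrays. Group means of 12, 7 and 3 of the 20 lay above the receptor level in these groups. The median difference of the list in mice 1, 2 and 3 was 0.62, 0.20 and 1.92, which orders the mice as the differences of Gpx3 and of Gpx8 do. This order was not particular to fibroblast markers. Medians of the glutathione synthesis, ferroptosis and oxidative folding lists, described below, ordered the mice in the same way, and those of the other lists did not. In mouse 2 the summed fibroblast signal was lower in the tumour than in HG-PIN, and Gpx3 was higher there by 1.84 and Gpx8 lower by 0.81. The part of these cells in the results was not tested.

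**Figure D3:**
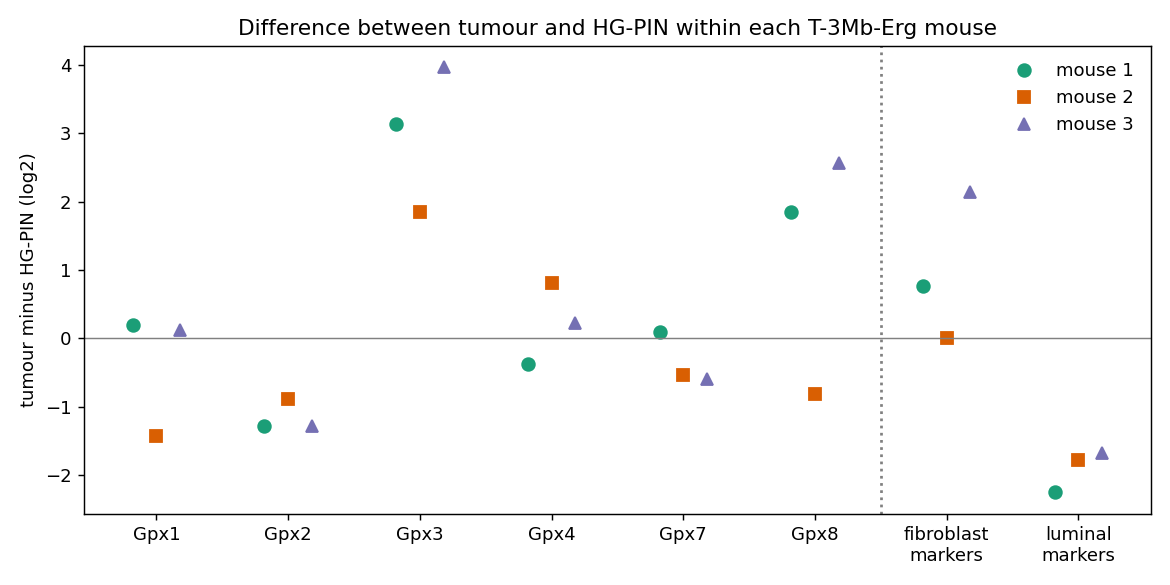
Tumour minus HG-PIN log2 difference (vertical axis) in each of the 3 T-3Mb-Erg mice for the 6 tested members, and the mean difference of the fibroblast and luminal marker lists. Gpx3 lies above 0 in 3 of 3 mice and Gpx2 below 0 in 3 of 3, while Gpx8 lies at 1.84, -0.81 and 2.56.

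Fat cells are also known to express Gpx3. Of 9 tested adipocyte markers 5 were positive, with a median of 0.24 and 0 called (1 at an unadjusted p under 0.05). Their summed intensity was 208.8, 221.9 and 748.7 in tumours against 183.8 to 255.8 in T-3Mb-Erg HG-PIN. The part of fat cells in the Gpx3 values was not tested. The 2 markers with the smallest p were Fabp4, a fatty acid carrier (2.19, adjusted p = 0.635), and Pparg, the adipocyte nuclear receptor (-0.67, adjusted p = 0.805). Endothelial markers were positive in 10 of 12 (median 0.29), led by the surface proteins Emcn (1.02, adjusted p = 0.299) and Pecam1 (0.87, adjusted p = 0.506), and macrophage markers in 5 of 14 (median -0.05). The lipopolysaccharide receptor gene Cd14 fell by 1.73 (adjusted p = 0.0409, or 0.0753 with the fixed replicate block), a call that ended without the tumour or HG-PIN array of mouse 1 or mouse 2, or without control HG-PIN replicate 3. With no signal filter (0.0520), log2 of intensity plus 16 (0.0665, change -0.97) or no variance trend (0.0535) its adjusted p also missed the threshold, which made 9 of 20 settings. Luminal epithelial markers were negative in 17 of 17 with a median of -1.88 and 8 called, among them Cldn4, a tight junction protein (-3.76, adjusted p = 0.00436, or 0.0711 without the tumour array and 0.0545 without the HG-PIN array of mouse 1). Called too were Elf3 (-2.91, adjusted p = 0.0154) and Foxa1 (-2.74, adjusted p = 0.0306), transcription factors of epithelium, and Krt8, a luminal keratin (-2.88, adjusted p = 0.0154). Luminal markers summed to 445.5 to 558.7 in tumours, against 1669 to 2246 in T-3Mb-Erg HG-PIN, with 789.2 to 1809 on control HG-PIN arrays. Gpx2 was also lower in the tumour than in HG-PIN in all 3 T-3Mb-Erg mice. The part of luminal cells in the Gpx2 values was not tested. Products of the epididymis, where Gpx5 is best known, and of the seminal vesicle were negative in 8 of 10 (median -0.54). Their median difference in mice 1, 2 and 3 was -0.81, -0.70 and 0.50. Their smallest p belonged to Svs5 (-5.45, adjusted p = 0.358) and Svs2 (-5.05, adjusted p = 0.374), seminal vesicle secretory proteins.

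Basal epithelial markers were negative in 7 of 9 (median -0.35) with 1 called, Krt15, a basal keratin (-2.998, adjusted p = 0.0158). Prostate secretory genes were negative in 10 of 12 (median -1.63, or -0.94 without the HG-PIN array of mouse 1) with 2 called, the matrix protease Mmp7 (-4.90, adjusted p = 0.0185) and the immunoglobulin receptor Pigr (-3.94, adjusted p = 0.0294). With the mean of all its probe sets in place of the brightest, the limma change of Mmp7 was -2.85 (adjusted p = 0.0247). The calls of Elf3, Krt8, Foxa1, Krt15, Mmp7 and Pigr each ended when the tumour array of mouse 1 or the HG-PIN array of mouse 1 or 2 was left out, and those of Foxa1 and Pigr also without control HG-PIN replicate 3 (adjusted p up to 0.235). With the fixed replicate block Elf3 and Krt8 had an adjusted p of 0.0505, Mmp7 of 0.0564, and Foxa1 and Pigr of 0.0753. With log2 of intensity plus 16 Foxa1 and Pigr also missed the threshold (adjusted p = 0.0665 each). Smooth muscle markers were negative in 10 of 14 (median -0.37) with 0 called and 4 at an unadjusted p under 0.05, led by Myl9 (-0.96, adjusted p = 0.521) and Lmod1 (-0.54, adjusted p = 0.527).

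Among the other genes of glutathione and peroxide metabolism 0 were called between tumours and T-3Mb-Erg HG-PIN. Of 22 tested genes of glutathione synthesis, breakdown and recycling 11 were positive (median -0.03), and 0 were called, with 1 at an unadjusted p under 0.05, Slc3a2, a subunit of the cystine importer (log2 change 0.77, adjusted p = 0.652). Next came Mgst2, a membrane-bound glutathione transferase (0.73, adjusted p = 0.701). Glutathione transferases were negative in 12 of 14, with 48.9% of all genes positive. Their median was -0.29, or -0.048 without the HG-PIN array of mouse 1, with 0 called and 2 at an unadjusted p under 0.05 (7.65% of all genes). These were Gsta4, which conjugates the lipid peroxidation product 4-hydroxynonenal (5.13 ± 0.44 in tumours, against 6.60 ± 0.41 in T-3Mb-Erg HG-PIN, SD, n = 3 each; log2 change -1.47, adjusted p = 0.197), and Gsto1 (-2.16, adjusted p = 0.294). Both had groups without overlap. Gsta4 passed in 2 of 20 other settings, the signal range as a term (adjusted p = 0.0153) and array weights (adjusted p = 0.0283). Peroxiredoxins, thioredoxins, catalase and superoxide dismutases were positive in 6 of 16 (median -0.13), with 0 called and 0 at an unadjusted p under 0.05. The smallest p there was that of Prdx3, the mitochondrial peroxiredoxin (0.53, adjusted p = 0.807), followed by that of Prdx4, the peroxiredoxin of the endoplasmic reticulum (0.50, adjusted p = 0.856).

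Genes of selenium metabolism, on which Gpx1 to Gpx4 depend, were also mixed. Other selenoprotein genes were positive in 6 of 13 (median -0.22), with 0 called and 1 at an unadjusted p under 0.05, Selenoh, a nuclear selenoprotein (-0.65, adjusted p = 0.628). Next was Selenoi, an enzyme of phospholipid synthesis (0.67, adjusted p = 0.773). Genes of selenium uptake and selenocysteine insertion were positive in 7 of 12 (median 0.07), with 0 called and 1 at an unadjusted p under 0.05. That gene was Lrp1, an endocytic receptor with many ligands, with 6.77 ± 0.97 in tumours, against 4.67 ± 0.18 in T-3Mb-Erg HG-PIN, with 4.08 ± 0.21 on control HG-PIN arrays (SD, n = 3 each). Its log2 change was 2.11 against T-3Mb-Erg HG-PIN (adjusted p = 0.0590, called in 4 of 20 other settings) and it rose by 2.69 against control HG-PIN (adjusted p = 0.0288). The second call ended without the tumour array of mouse 1 or 3, the HG-PIN array of mouse 2 or 3, or control HG-PIN replicate 1 or 3 (adjusted p up to 0.167). It also ended with log2 of intensity plus 16 (0.0698) and on the 2 groups alone (0.110), so that 8 of 19 other settings lost it. Lrp1 was the only called gene among the 8 lists of redox and selenium genes in any of the 3 comparisons. Fibroblasts also express Lrp1. Second in this list was Sepsecs, the selenocysteine synthase (0.32, adjusted p = 0.896).

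Nrf2 pathway genes were positive in 5 of 19 (median -0.06), with 0 called and 1 at an unadjusted p under 0.05, Hmox1, the heme oxygenase (1.16, adjusted p = 0.442). Cbr1, a carbonyl reductase, followed (-1.23, adjusted p = 0.679). Genes of lipid peroxidation and ferroptosis were positive in 10 of 19 (median 0.06), with 0 called and 1 at an unadjusted p under 0.05. It was Slc40a1, the iron exporter ferroportin, with 3.67 ± 0.22 in tumours, against 4.71 ± 0.43 in T-3Mb-Erg HG-PIN (SD, n = 3 each; -1.04, adjusted p = 0.251). Ptgs2, the inducible cyclooxygenase, was second (2.04, adjusted p = 0.691). Genes of oxidative folding in the endoplasmic reticulum, the setting of Gpx7 and Gpx8, were positive in 9 of 19 (median -0.04), with 0 called. Among them 2 were higher and 3 lower at the unadjusted 0.05 level. Ero1a, the oxidase that makes the peroxide, stood at 1.27 (adjusted p = 0.465), and Qsox1, a secreted thiol oxidase, at -1.13 (adjusted p = 0.208). In the HG-PIN comparison 0 genes of these 8 lists were called, with medians from -0.02 to 0.27 and up to 2 genes of a list at an unadjusted p under 0.05.

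**Figure D4:**
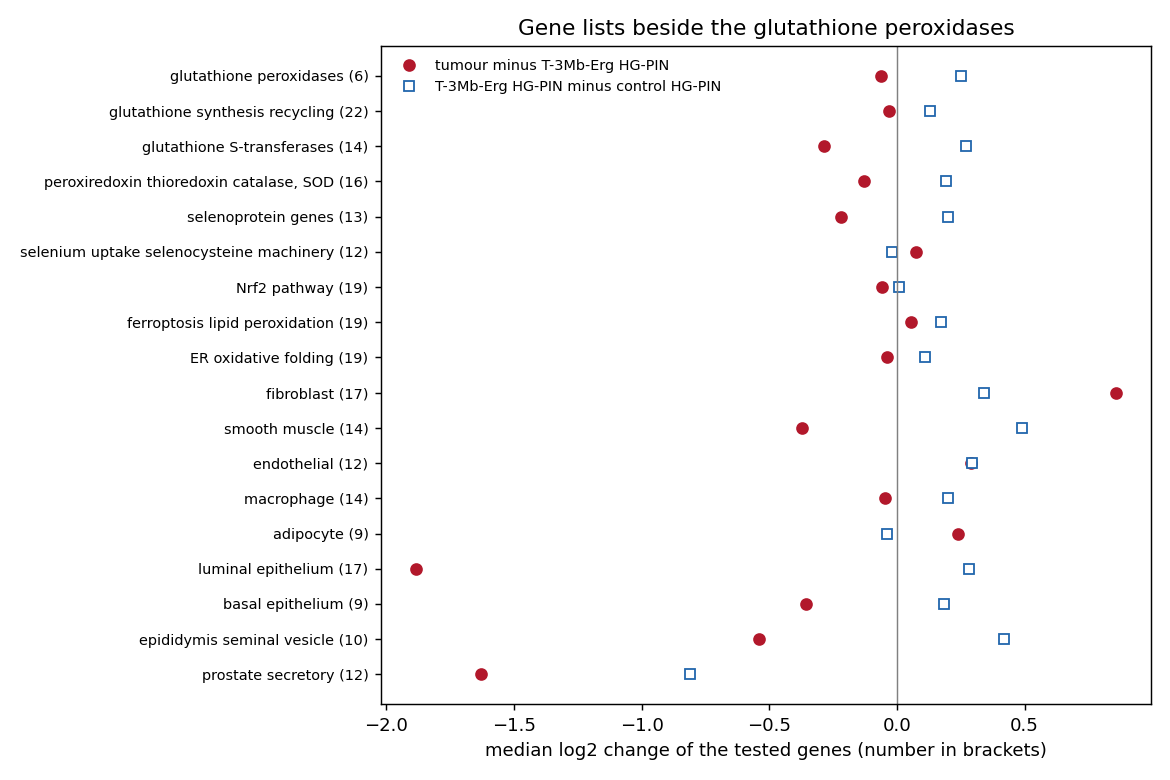
Median log2 change (horizontal axis) of the glutathione peroxidases and of 17 gene lists, with the number of tested genes in brackets. Filled circles are tumours minus T-3Mb-Erg HG-PIN and open squares T-3Mb-Erg HG-PIN minus control HG-PIN, which share the T-3Mb-Erg HG-PIN arrays; the redox and selenium lists lie between -0.29 and 0.27, the luminal list at -1.88 and the fibroblast list at 0.86 in the tumour comparison.

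For members whose values spanned more than 2 on the log2 scale, the 5 tested genes with the most similar profile were found by the root mean square difference over the 9 arrays, after removal of each gene's own mean. For Gpx3 the nearest was Prrx1, a homeobox factor of mesenchyme, at 0.43, against a median of 1.48 over all genes. It was followed by Tmem100 (0.56), Slit3, a secreted guidance cue (0.59), the transcript 9430069I07Rik (0.61) and Efemp1, a fibulin of the extracellular matrix (0.61). Means of Prrx1, Tmem100 and 9430069I07Rik lay below the receptor level in both kinds of HG-PIN, and those of Slit3 and Efemp1 in control HG-PIN alone. For Gpx8 the nearest were Tnc, the matrix protein tenascin C (0.29), Cavin3, a caveolar coat protein (0.30), Ldb2, a LIM-domain-binding cofactor (0.31), Hmox1 (0.32) and Ap1s2 (0.35), against a median of 1.004. In both kinds of HG-PIN the means of Tnc, Ldb2, Hmox1 and Ap1s2 lay below the receptor level, and those of Cavin3 above it. For Gpx2 they were Klk1b27, a kallikrein (0.16), Gm16136 (0.18), Sprr2b, a cornified envelope protein of stratified epithelia (0.28), Mir1932 (0.28) and Gucy2d (0.29), against a median of 0.69. The tumour means of Klk1b27, Gm16136, Mir1932 and Gucy2d, at 2.73, 4.22, 4.17 and 3.73, lay below the receptor level as that of Gpx2 did, and that of Sprr2b, at 5.80, above it. No gene stood among the nearest of more than 1 of the 3 members. The measure keeps the size and direction of changes, and Gpx2 moved opposite to Gpx3 and Gpx8 in tumours. Lists of 5 genes therefore cannot show whether the members are linked, and how often other genes share a neighbour was not tested. The 9 arrays behind each likeness are those of the comparisons above.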

How the data were processed

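The deposited values are linear intensity values of 41345 probe sets on 9 arrays, as deposited by the authors, between 1.36 and 13922. Per the labels' protocols, RNA from laser-captured fixed tissue was amplified by a NuGEN Ovation kit and read on an Affymetrix mouse gene array. How background was corrected and arrays were normalized is not given in the sources used here. Names came from the platform annotation, updated through Entrez identifiers with RefSeq (GRCm38.p6): 23521 had 1 symbol (23328 matched), 1814 several and 16010 none. The brightest probe set was kept for each of 22180 genes. Intensities were log2-transformed with a floor of 1, reached by 0 values.

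The test was limma 3.58.1 (R 4.3.3) over all 9 arrays: group means, the mouse as a random block (duplicateCorrelation, consensus -0.01), a mean-variance trend, and Benjamini-Hochberg adjustment over 16635 genes. The labels give the same 3 mice for tumours and T-3Mb-Erg HG-PIN. Deviations of same-mouse arrays from their group means correlated at 0.17, 0.10 and -0.30. Within each group every array was a different mouse. The members and lists were chosen with earlier results of these data known. Named from each list were up to 4 genes called between tumours and T-3Mb-Erg HG-PIN, or the 2 with the smallest p. Alternatives changed the block, signal filter, probe set rule, offset, normalization, array weights, arrays in the fit, trend and signal range, or left out single arrays. A part of the genotype that all 6 mice share is not reported here. No values of unmapped samples were used.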

Additional observations from a re-analysis of the deposited data

How the results depend on the processing

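Of the members, Gpx3 was called between tumours and T-3Mb-Erg HG-PIN in 18 of 20 other settings, all 11 that left out no single array and 7 of 9 that left out 1, with changes from 2.35 to 3.42. In the tumour and control HG-PIN comparison it was called in 13 of 19, with changes from 2.23 to 2.92. Members called ranged over 0 to 1 without single arrays in the first comparison and 0 to 2 in the last, where array weights called 2 (Gpx3 and Gpx8) and the 2 groups alone 0. The fixed replicate block was fitted for tumours against T-3Mb-Erg HG-PIN alone, since control mice have 1 array each, and it changed no call of a member.

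The number of all genes called moved more than that of the members. From 47 in the first comparison it went to 15 with the fixed replicate block, 18 with log2 of intensity plus 16, 72 with quantile normalization, 405 with array weights and 180 with the signal range as a term, and to between 0 and 110 without single arrays. From 0 between the HG-PIN groups it went to 9 with array weights, 6 with the range term, 4 on the 2 groups alone and 0 to 6 without single arrays. From 30 between tumours and control HG-PIN it went to 7 with the offset of 16, 65 with quantile normalization, 938 with array weights, 171 with the range term, 6 on the 2 groups alone and 0 to 261 without single arrays. The cause was not tested.

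Directions turned only for members near 0. Between the HG-PIN groups Gpx1 stood at -0.0116 with array weights, -0.0927 with the range term and between -0.220 and 0.258 without single arrays, and Gpx3 between -0.692 and 0.196. Between tumours and control HG-PIN, Gpx4 ranged from -0.196 to 0.0452 and Gpx7 from -0.0452 to 0.306 without single arrays.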
